A study of Homo sapiens with 2 samples.

Results

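ATP-binding cassette (ABC) transporters were measured in SAS cells, a cell line from a human tongue squamous cell carcinoma, and in eSAS cells derived from them. Members were chosen by the gene name given on the array: every probe outside the control spots whose name was ABC followed by a subfamily letter from A to G and a number. This rule took 47 genes, with 68 probes on 77 spots, out of 30484 names, 41000 probes and 43376 probe spots. All 45 protein-coding genes with such a name in RefSeq were among them, and the other two, ABCA11 and ABCC13, are pseudogenes in RefSeq. Of the 47 genes, 7 were set apart as drug efflux members (ABCB1, ABCC1 to ABCC5 and ABCG2) and 40 formed the rest. The rule itself uses only names and no measured value.

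The parental SAS cells had gone through no selection and were grown in DMEM with serum. The eSAS cells were the same line after 5 rounds in which large spheroids were retained on a removable mesh (Spheroid Catch) and expanded, so they are 1 selected population and carry no introduced gene or drug treatment. RNA of each population was labelled with Cy3 and hybridised to 1 array, and both arrays lie on 1 slide. With 1 array per population there was no replicate and hence no test and no p-value; a difference between the arrays cannot be told apart from a difference between 2 cultures of the same cells.

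ABC transporters use ATP bound and split by a pair of nucleotide-binding domains to move lipids, peptides, metals, metabolites or drugs across membranes. Subfamily A carries mostly lipids, B serves drug efflux and the mitochondrion, C exports conjugated anions, D serves mainly the peroxisome, and G carries sterols and drugs, while E and F have no membrane part and act at the ribosome. In carcinoma cells the family is best known for the drug efflux pumps, and ABCG2 also sets the dye-excluding side population used to enrich stem-like cells. The study asked whether spheroid-forming SAS cells withstand cisplatin. It compared eSAS cells with cells from an earlier selection round (aSAS) and reported more viable eSAS cells, with an IC50 that was likely the same. The arrays compare eSAS with parental SAS cells instead, and the part of the drug efflux members in cisplatin survival was not tested.

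The values are processed signals, which are intensities with the background removed, and ratios are log2 of eSAS over SAS after each array was divided by its 75th percentile (1242 for SAS and 1196 for eSAS cells). Signals well above background made up 69.4% (SAS) and 67.5% (eSAS) of the probe spots, and none was saturated. The error printed after a log2 ratio is the scanner software's own estimate, which was close to 10.0% of the signal for most spots on both arrays; it leaves out culture, RNA and labelling. For 211 other probes spotted 10 times, log2 ratios of spots of the same probe had a pooled SD of 0.078. The squamous identity of both populations could be read from its markers: all 10 listed genes were well above background on both arrays, among them TP63, KRT5 and DSG3. In eSAS cells 3 of these 10 were at least 1.5-fold lower (KRT14, KRT5 and SFN). This was 4 of the 12 marker probes (33.3%), beside 6.12 percent of all probes that passed on 1 or both arrays. The 12 probes had log2 ratios from -6.58 (KRT14) to 0.040 (EPCAM) with a median of -0.47. The 2 KRT14 probes differed widely, at -6.58 and -1.23. The part of this shift in the ABC values was not tested. Of 10 markers of blood, endothelial, stromal and muscle cells, CD68 alone was well above background on both arrays, while CDH5, COL1A1 and DES were so in SAS cells only and the other 6, with PTPRC and PECAM1 among them, on neither.

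Promoter sequence is shown for the 2 of the 5 members lower in eSAS cells that have an entry in the RefSeq promoter table (GRCh38.p14), ABCA1 and ABCG2; each run is the 250 bases before an annotated start, 5′ to 3′ on the gene's strand. Capitals mark matches, on either strand, to GGGCGG, to CACGTG, to TGACNNNGC, or to a direct repeat of NGGTNA with 4 bases between the half-sites, the spacing on which liver X receptors act. The first, on the minus strand at chr9:104928156-104928405, is the only entry for ABCA1. The second, on the minus strand at chr4:88159291-88159540, precedes the outermost of a group of 4 neighbouring ABCG2 starts; a further start lies upstream and its window, chr4:88231627-88231876, held no match.

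ABCA1: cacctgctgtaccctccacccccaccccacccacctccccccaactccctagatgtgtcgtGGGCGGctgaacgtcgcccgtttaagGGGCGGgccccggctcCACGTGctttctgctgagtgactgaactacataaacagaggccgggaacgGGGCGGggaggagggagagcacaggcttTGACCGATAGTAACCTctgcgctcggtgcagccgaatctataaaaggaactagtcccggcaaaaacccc
ABCG2: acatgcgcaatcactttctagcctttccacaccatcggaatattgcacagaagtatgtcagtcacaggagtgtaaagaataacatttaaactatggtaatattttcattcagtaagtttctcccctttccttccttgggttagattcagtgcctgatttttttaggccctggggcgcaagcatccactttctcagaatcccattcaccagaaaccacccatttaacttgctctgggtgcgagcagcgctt

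The ABCA1 window held 3 GGGCGG, 1 CACGTG and, from 69 to 54 bases before the start, the direct repeat, which is read on the opposite strand. The repeat was searched for because the ABCA1 promoter is a textbook liver X receptor target, so its presence there was known beforehand. It was in 0.53% of 35116 windows of this length and in 1 of the 53 windows of the 35 members with an entry. GGGCGG was in 42.6% of all windows, CACGTG in 6.34% and TGACNNNGC in 10.9%. The printed ABCG2 window held no match, whereas the windows of 2 of its 3 neighbouring starts, which overlap each other, held 2 GGGCGG and 1 CACGTG each. A match is a description of the letters, and these arrays do not measure binding.

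No ABC transporter was at least 1.5-fold higher in eSAS cells, and 5 were at least 1.5-fold lower, among them the cholesterol exporters ABCA1 and ABCG1 and the drug efflux pump ABCG2. These were 6 of the 44 probes that rose well above background on 1 or both arrays (13.6%), where 6.12 percent of all 28439 such probes were that much lower and 4.43 percent that much higher. At 2-fold, 4 member probes in 3 genes, ABCA1 and ABCG1 among them, were lower (9.09%) and 0 higher, against 1.97 and 1.83 percent of all probes. The ABCG1 probe and the dimmer ABCA1 probe entered both member counts through their SAS signal only. Leaving these 2 out, 4 of 42 member probes were at least 1.5-fold lower and 2 at least 2-fold lower. The shares of all probes also include probes that passed on 1 array only, so they are not matched to these smaller counts. Of the 42 member probes in 28 genes that were well above background on both arrays, 38 lay within 1.5-fold, 22 had a log2 ratio below 0 and 20 above. Their median log2 ratio was -0.020 with an SD of 0.40, beside -0.0039 and 0.36 for all 26659 probes measured on both arrays, of which 24532 lay within 1.5-fold. The typical ABC transporter probe thus had nearly the same scaled signal on both arrays, and the differences sat in a few genes. The remaining 24 probes were not well above background on either array, and 18 genes had only such probes. These were the lung surfactant transporter ABCA3 with ABCA6, ABCA8, ABCA9, ABCA10 and ABCA13, the drug pump ABCB1 with ABCB4, ABCB5 and the bile salt pump ABCB11, the sulfonylurea receptors ABCC8 and ABCC9 with ABCC11, ABCC12 and ABCC13, and ABCD2, ABCG4 and ABCG8.

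**Figure D1:**
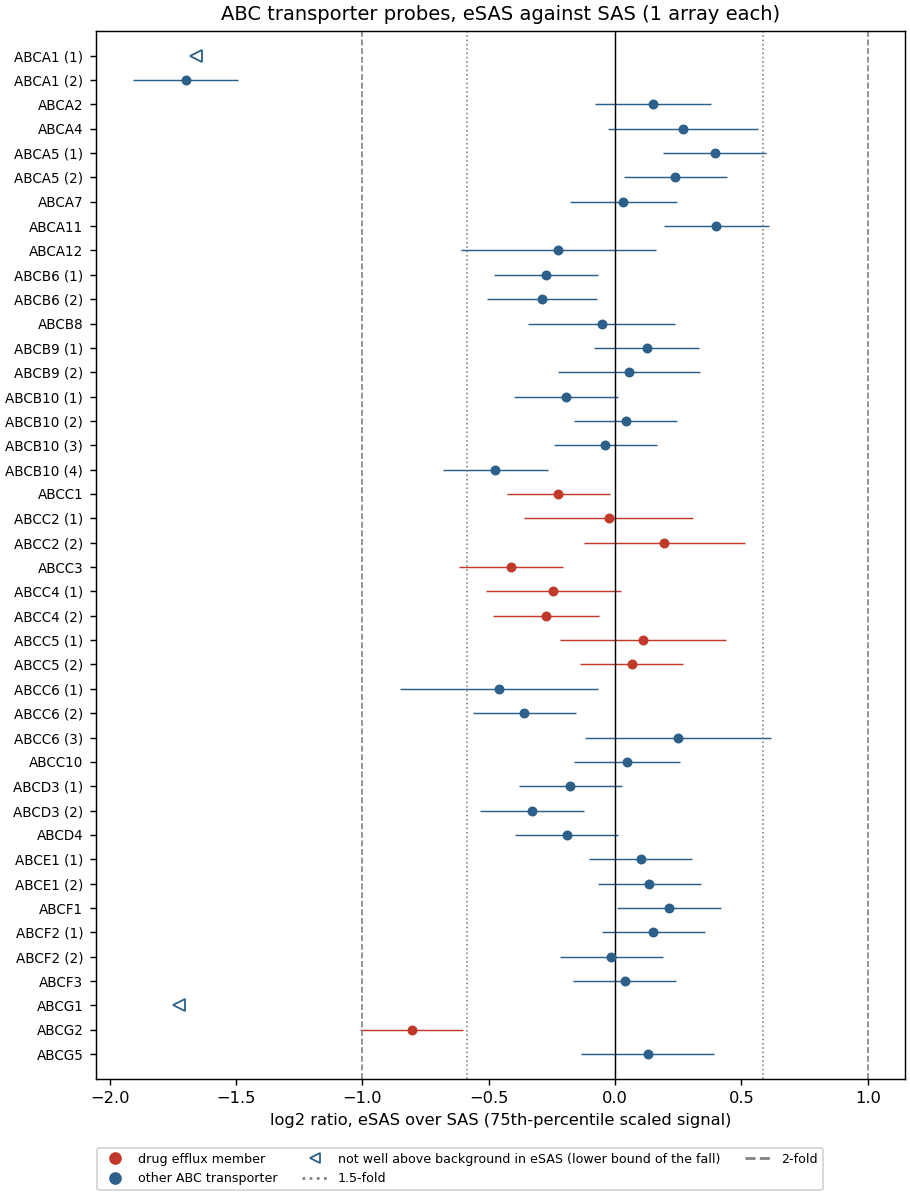
Log2 ratio of eSAS over SAS for 42 of the 44 ABC transporter probes well above background on 1 or both arrays, by subfamily, with numbers in brackets for probes of the same gene. Bars are the scanner software's error, and dotted and dashed lines mark 1.5-fold and 2-fold. Open triangles are probes not well above background in eSAS cells, drawn at a lower bound (ABCG1) or at the plain ratio (ABCA1). The lower tail holds ABCA1, ABCG1 and ABCG2, and no point passes the 1.5-fold line on the right.

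**Figure D2:**
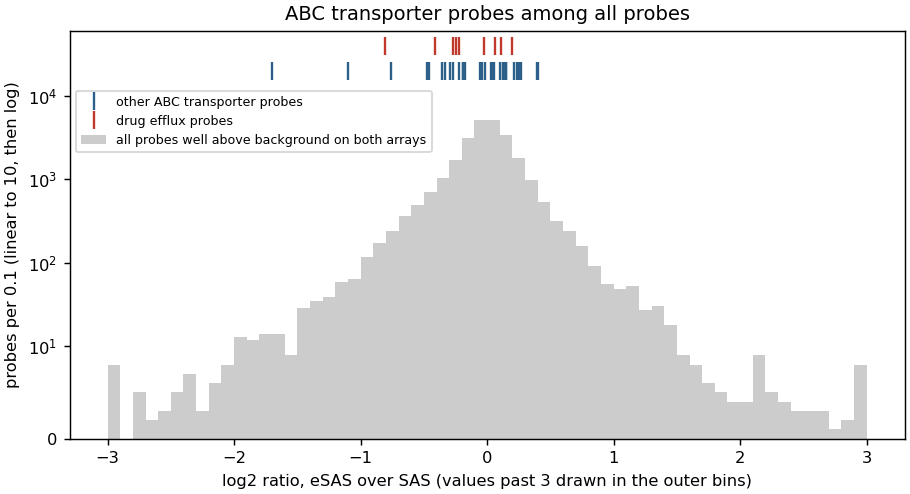
Histogram of log2 ratios (eSAS over SAS) of all 26659 probes well above background on both arrays, with ticks for the 33 other ABC transporter probes and the 9 drug efflux probes among them. The member ticks crowd around 0 as the grey bars do, and their highest value, 0.40, is far inside the upper tail.

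Among the drug efflux members, ABCG2 (breast cancer resistance protein) was the one that differed by 1.5-fold. Its probe, at chr4:89232450-89232509 on hg18, read 1762 in SAS and 971 in eSAS cells. This is 1.75-fold lower in eSAS cells, a log2 ratio of -0.81 ± 0.20, and 2.31% of all probes measured on both arrays had a lower ratio. The signal stayed far above background on both arrays, and spots next to it had a median log2 ratio of 0.12, so the neighbouring spots did not move with it. In RNA of whole cultures, fewer cells with the transcript and less transcript per cell cannot be told apart, here and for the members below.

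ABCB1 encodes P-glycoprotein, the classical multidrug pump. Its probe was spotted 10 times, and the 8 spots without a mark on either array read from 2.57 to 3.77 in SAS and from 3.04 to 4.36 in eSAS cells. None of these was well above background, so ABCB1 gave no ratio. Of the other 2 spots, one read 22.2 in SAS and 3.56 in eSAS cells and one read 3.27 and 10.3, and the software had marked the high reading of each as an outlier among the replicate spots.

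ABCC1 to ABCC5, which export glutathione, glucuronide and other organic anion conjugates, all lay within 1.5-fold. Of these 5, ABCC3 came nearest to that limit with 614 in SAS and 444 in eSAS cells, 1.33-fold lower (log2 ratio -0.41 ± 0.20). ABCC1 (MRP1) read 700 and 577, a log2 ratio of -0.22 ± 0.20. ABCC4, which also carries cyclic nucleotides, had 2 probes above background at 172 and 137 and at 42.7 and 34.7, with log2 ratios of -0.27 and -0.24, while its last probe was not well above background on either array. All 4 ratios of these 3 genes were below 0, for ABCC1 and ABCC4 by amounts close to the software's error and for ABCC3 by more.

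ABCC2 (MRP2), known for carrying platinum-glutathione conjugates, had both probes close to background, at 25.1 in SAS and 23.7 in eSAS cells and at 24.7 and 27.2. Their log2 ratios, -0.025 ± 0.33 and 0.19 ± 0.32, lay on either side of 0 within their error. ABCC5, a nucleotide analogue transporter, read 605 and 609 on its brighter probe and 33.8 and 35.1 on the other, with log2 ratios of 0.065 and 0.11. Over the 9 drug efflux probes measured on both arrays, in 6 genes, 6 ratios were below 0, and the median was -0.22, against 0.033 for the 33 probes of the other ABC transporters. Of these 9 probes, 0 were at least 1.5-fold higher in the selected cells and 1 (11.1%) was at least 1.5-fold lower. Of all probes, including those that passed on 1 array only, 4.43 percent were that much higher and 6.12 percent that much lower. With 9 probes, these counts cannot be told apart from those shares.

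**Figure D3:**
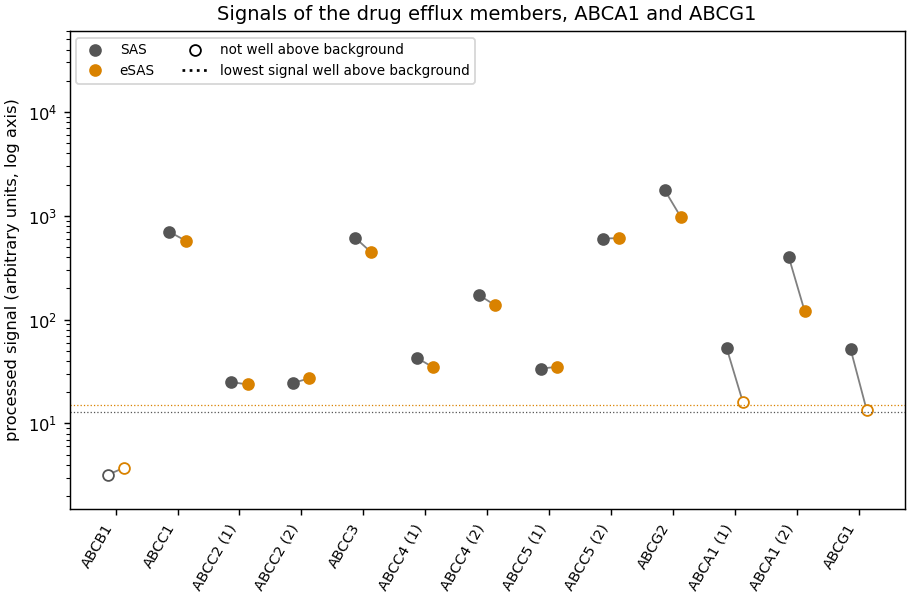
Processed signal (log axis, arbitrary units) in SAS and in eSAS cells for the drug efflux members, then for ABCA1 and ABCG1. Each pair of joined points is 1 probe, open points are not well above background, and heights are not comparable between probes. ABCB1 lies below the background limit on both arrays, ABCC1 to ABCC5 run almost level, and ABCG2 falls from 1762 to 971.

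The lipid exporters held the lowest values. ABCA1 loads cholesterol and phospholipid onto apolipoprotein A-I. Its probe at chr9:106583525-106583584 (hg18) read 405 in SAS and 120 in eSAS cells, 3.25-fold lower (log2 ratio -1.70 ± 0.21), and 0.319% of all probes had a lower ratio. A second ABCA1 probe, at chr9:106586194-106586253, read 53.0 in SAS cells and 16.2 in eSAS cells, 3.16-fold lower. In eSAS cells it was not well above background. Bounds for such probes set the bright array's signal against the higher of the dim probe's own signal and the lowest signal that was well above background on that array. Here the probe's own signal was the higher (16.2 against 15.2), so 3.16-fold is its plain ratio and not a lower bound. On processed signals both probes were more than 3-fold lower, but for the dimmer one the size depended on the background treatment. The third, designed on another transcript at chr9:106658010-106658069, was not well above background on either array.

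ABCG1, which passes cholesterol on to high-density lipoprotein, read 52.2 in SAS cells and 13.5 in eSAS cells, the latter not well above background. On processed signals the bound, as defined above, was 3.31-fold lower, from 1 probe at chr21:42589853-42589912. The brightness before background subtraction was 101 and 62.3 for ABCG1 and 106 and 67.7 for the dimmer ABCA1 probe, over local backgrounds of 25 to 30. The size of these 2 falls therefore depends on the background that is removed. For the brighter ABCA1 probe it was 442 and 166.

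The other sterol and phospholipid transporters were near 0 or near background. ABCA7 read 104 in SAS and 102 in eSAS cells, a log2 ratio of 0.033 ± 0.21, and ABCG5, which with ABCG8 exports plant sterols, read 37.1 and 39.0 (0.13 ± 0.26). ABCG8, ABCG4 and ABCA3 were not well above background on either array. In the rest of subfamily A, ABCA5 read higher in eSAS cells on both probes, 677 and 857 on one and 525 and 597 on the other, with log2 ratios of 0.39 and 0.24 (± 0.20 each). The pseudogene ABCA11 had the highest log2 ratio among the members measured on both arrays, 0.40 ± 0.21, from 155 and 197. ABCA12, the lipid transporter of keratinocyte lamellar granules, was near background at 20.0 and 16.5, with a log2 ratio of -0.22 ± 0.38. The members not described elsewhere (ABCA2, ABCA4, the lysosomal peptide transporter ABCB9, and ABCC10) had log2 ratios from 0.047 to 0.27.

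In subfamily D, ABCD3, a peroxisomal half-transporter, read 1181 in SAS and 1006 in eSAS cells on its brighter probe, with log2 ratios of -0.33 and -0.18 on 2 probes. ABCD4, a lysosomal cobalamin transporter, read 1617 and 1363 (-0.19 ± 0.20). Both genes leaned below 0, by more than the software's error on the dimmer ABCD3 probe (-0.33 ± 0.21) and by amounts close to it otherwise. ABCD2 was not well above background on either array.

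Among the mitochondrial members, ABCB6, a porphyrin transporter, read 381 in SAS and 304 in eSAS cells on its brighter probe, with log2 ratios of -0.27 and -0.29 on 2 probes. ABCB8 lay at -0.054 ± 0.29.

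ABCB10, a mitochondrial transporter needed for heme synthesis, had 4 probes whose log2 ratios ran from -0.47 to 0.042. The lowest came from its dimmest probe, 208 in SAS and 144 in eSAS cells, while the other 3 lay between -0.19 and 0.042, so the probes of 1 gene differed by more than 0.5. ABCC6, which is known for the release of ATP from liver cells, showed the same kind of spread between probes: -0.36 ± 0.21 on its bright probe (378 and 284), and -0.46 ± 0.39 and 0.25 ± 0.37 on 2 probes near background. ABCC6 has near-identical pseudogene copies, which its probes may also read.

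The soluble members lay close together. ABCE1, which splits ribosomes after termination, read 3662 in SAS and 3785 in eSAS cells on its brighter probe. ABCF1, ABCF2 and ABCF3, which act in translation and its control, and ABCE1 had log2 ratios from -0.015 to 0.21 over 6 probes, with a median of 0.12. All 4 genes were well above background on both arrays, and 0 of the 6 probes passed 1.5-fold in either direction. Of all 26659 probes measured on both arrays, 24532 also lay within 1.5-fold. The peptide transporters of the endoplasmic reticulum, ABC proteins under other names, also lay within 1.5-fold. TAP1 had a log2 ratio of -0.14, and TAP2 had -0.21 and 0.19 on 2 probes. CFTR, a further ABC protein under another name, was not well above background on either array and gave no ratio.

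Genes that work with the ABC transporters were taken as lists. The 14 regulators of ABC genes included the liver X receptors NR1H2 and NR1H3, SREBF2, NFE2L2 and AHR. All 25 measured probes, of 12 of these genes, lay within 1.5-fold, with a median log2 ratio of 0.062. Most probes did so: 24532 of all 26659 measured on both arrays lay within 1.5-fold. NR1H3 read 2643 in SAS and 2870 in eSAS cells, and NR1H2 had log2 ratios of 0.27 and 0.35. The part of these regulators in the ABC values was not tested.

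Of 9 partner genes, 2 of the 10 probes measured on both arrays were at least 1.5-fold lower and 0 higher. Beside this stand the same 6.12 and 4.43 percent of all probes, which also include probes that passed on 1 array only. APOE, an apolipoprotein that accepts cholesterol from ABCA1, read 169 and 37.5, 4.37-fold lower, and PDZK1, a scaffold that binds several transporters, read 137 and 32.9, 4.01-fold lower. NHERF1, another such scaffold, had a log2 ratio of -0.39, and PEX3, PEX19 and TAPBP lay between -0.17 and 0.15.

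Cisplatin is also carried by transporters outside the ABC family. A wider list held 11 genes linked to platinum, copper and organic cations, not all of them transporters. Of these, 10 were found on the arrays, all but ATP7A. Of their 13 probes well above background on 1 or both arrays, 5 were at least 1.5-fold lower, in 4 genes, and 0 higher. Of all probes, 6.12 percent were that much lower and 4.43 percent that much higher. The SLC47A2 probe and 1 SLC22A3 probe entered this count through their SAS signal only, so they could not count as higher. Of the 11 listed probes well above background on both arrays, 8 lay within 1.5-fold, beside 24532 of all 26659 such probes. ATP7B, a copper ATPase, read 524 in SAS and 223 in eSAS cells, 2.26-fold lower. The organic cation antiporter SLC47A1 had log2 ratios of -0.69 and -0.84 on 2 probes. On processed signals SLC47A2 was at least 4.67-fold and SLC22A3 at least 2.14-fold lower, each on a probe well above background in SAS cells only. Other background settings were not run for these 2 probes. The other SLC22A3 probe was not well above background on either array. The copper importer SLC31A1 lay between -0.090 and 0.033 on 4 probes, and MVP, the major vault protein, at 0.33.

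**Figure D4:**
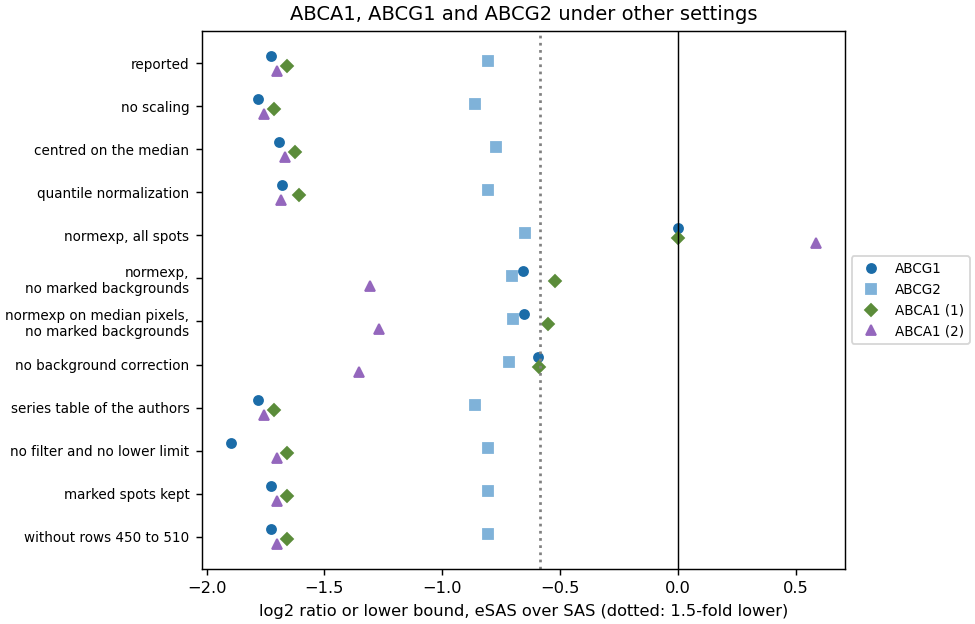
Log2 ratio of eSAS over SAS, or its bound, for the probes of ABCA1, ABCG1 and ABCG2 at least 1.5-fold lower in eSAS cells, as reported (top) and under 11 other settings. ABCG2 stays left of the dotted 1.5-fold line throughout, and the dimmer probes move when the background is treated differently; under normexp over all spots the brighter ABCA1 probe turns above 0.

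How far the dim members fell depended on the background treatment. ABCG2 stayed between 1.57-fold and 1.81-fold lower under 11 other settings. The brighter ABCA1 probe was 2.41-fold to 3.37-fold lower under 10 of them, but had a log2 ratio of 0.58 under normexp (a model-based background correction) over all spots, where 47.5% of all probes came out at least 1.5-fold higher. The falls of ABCG1 and of the dimmer ABCA1 probe shrank to 1.51-fold and 1.44-fold at the least under other background settings, and to none under normexp over all spots.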

How the data were processed

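Each population's RNA was hybridised to 1 single-colour Agilent array. The authors deposited linear intensity values from Agilent Feature Extraction 10.7.3.1 (version per the labels); the processed signal is corrected for background and not scaled between arrays. The deposited series table equals this signal on 100% of spots. No columns belonged to other samples (0).

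Marked spots (non-uniform or outlier) and control spots were left out, spots of 1 probe were averaged, and each array's log2 signals were set relative to its 75th percentile. Well above background means that over 50% of a probe's spots passed the software's mark. Adjacent spots are the 8 nearest. Of 68 member probes, 65 matched a RefSeq accession. Probe positions are the array's, in hg18; promoters are those of RefSeq, GRCh38.p14. Named were the drug efflux members, every member 1.5-fold apart, members whose probes differed by over 0.5, and examples by role; some single-gene results that meet this rule are not reported here, although counts include them. Members and lists were chosen with earlier results of these data known. Alternatives changed scaling, background, filters and the unit counted. R 4.3.3, limma 3.58.1 and Python 3.11.15 were used, and the counting was tested on simulated data.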

Additional observations from a re-analysis of the deposited data

How the results depend on the processing

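The counts and medians were recomputed under 13 alternatives, and of 78 such values 65 kept within the limits set (1.5 times for a count, 0.078 for a median). Part of this agreement was fixed beforehand, so the 65 are not independent checks. Leaving out the scaling and taking the deposited values are 1 setting entered again, with identical results. Keeping marked spots returned every main value. Leaving out the scaling or centring on the median shifts all ratios by 1 constant smaller than 0.078, so neither median could leave its limit. Normexp over all spots, which moved the median of all probes to 0.53, gave 24 member probes at least 1.5-fold higher, 2 lower, 20 at least 2-fold higher and 0 lower, with medians of 1.47 for drug efflux and 0.74 for other members; the brighter ABCA1 probe turned to 0.58. The 4 probes at least 2-fold lower became 1 under normexp without spots with a marked local background, on mean or median pixels, and under no background correction, and 2 when only probes well above background on both arrays counted. The drug efflux median moved from -0.22 to -0.028 without background correction and to -0.025 without a filter, where ABCC13, at 2.64 and 4.84 near the floor, gave 1 probe 1.5-fold higher. Why settings differ was not tested. No paired analysis was possible because each population had a single array. A slide block could not be fitted, as the 2 arrays share a slide. Signals near background limit the dimmer ABCA1 probe, ABCG1, ABCC2, ABCA12 and the dimmer ABCC6 probes.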
